A study of Mus musculus with 6 samples.

Results

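The imprinted fetal growth genes are genes of which mainly the copy inherited from the father or mainly the copy from the mother is expressed, and many of them promote or restrain growth before birth. Their RNA is abundant in fetal organs, lung included, and declines as growth slows after birth. Here they were H19, Dlk1, Meg3, Peg3, Plagl1, Cdkn1c, Grb10, Mest, Ndn and Peg10, taken as every probe set that the platform annotation gives to one of these symbols. The rule found 35 probe sets of 9 genes among the 45037 probe sets of the array that are not controls. The annotation gives a further probe set, 1448194_a_at, to H19 and to the microRNA gene Mir675 together, and H19 had no probe set of its own, so that probe set is described below but is not counted with the 35. An array of this kind reads the RNA of both parental copies together, so nothing here says from which copy the RNA came.

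Lungs of mouse fetuses of stage E18.5, close to birth, were measured on 6 Affymetrix arrays, 1 for each animal, and the labels call the 3 animals of a group biological replicates. The 3 animals of the Cre-labelled group are labelled Nfib f/f with Dermo1-Cre, and the 3 of the control-labelled group Nfib f/f without Cre, so every animal had both alleles of Nfib floxed. Nfib encodes nuclear factor I B, a transcription factor needed for lung maturation. Dermo1-Cre places Cre recombinase under the Twist2 locus, which is active in mesenchymal cells, so Nfib of epithelium and other cells is not its target.

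Signal for Nfib was higher on the Cre-labelled arrays for 5 of the 6 tested Nfib probe sets, each at a limma adjusted p under 0.05. The brightest read 11.24, 11.16 and 11.49 on the Cre-labelled arrays against 10.24, 10.32 and 10.17 on the control-labelled arrays (log2 signal). Its difference was 1.05 ± 0.12 SE (limma adjusted p = 0.0049), and that of the probe set not called, 1438244_at, was -0.11 ± 0.13 SE (adjusted p = 0.71). The sources used here do not say whether these probes lie in the deleted part of the gene, so they check nothing, and every direction below rests on the labels as deposited. Lung genes were bright on every array, such as the surfactant gene Sftpc at 12.23 to 13.52 and the lung mesenchyme gene Tbx4 at 10.18 to 10.36. Values are log2 signals, and a difference is the Cre-labelled mean minus the control-labelled one, given with the limma standard error (SE) for 3 against 3 arrays. A probe set was tested when its mean over the 6 arrays reached a log2 signal of 4.0, and it was called when its Benjamini-Hochberg adjusted p over all 27022 tested probe sets was under 0.05. Levels of different probe sets cannot be compared with each other.

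Imprinted genes are kept in clusters in which a stretch of methylated DNA decides which parental copy is read. In the Dlk1 cluster of chromosome 12 the paternal copy gives Dlk1, a membrane protein with EGF-like repeats that holds back adipocyte differentiation, and the maternal copy gives the noncoding RNAs Meg3, Rian and Mirg. In the H19 and Cdkn1c region of chromosome 7 the maternal copy gives H19, a noncoding RNA, and Cdkn1c, an inhibitor of cyclin-dependent kinases.

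Of the 29 member probe sets tested, 1 was called lower in Cre-labelled lungs and none higher. That is 3.45% of them, near the 3.56% called among all tested probe sets (1.41% higher and 2.16% lower), so the call rate over the members is not a result about imprinted growth genes. The 29 had a median log2 difference of -0.14, against 0.00 over all tested probe sets. The called probe set belonged to Meg3, and all 11 Meg3 probe sets had a lower mean. Between the groups 9 of the 29 did not overlap, 5 lower and 4 higher in Cre-labelled lungs, which is 17.2% and 13.8%, against 12.8% and 13.3% of all tested probe sets. An unadjusted p under 0.05 was found for 9 of the 29, and for 19.5% of all tested probe sets. Outside Meg3, of 18 tested probe sets 12 had a higher mean and 6 a lower one, and their median difference was 0.075.

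**Figure D1:**
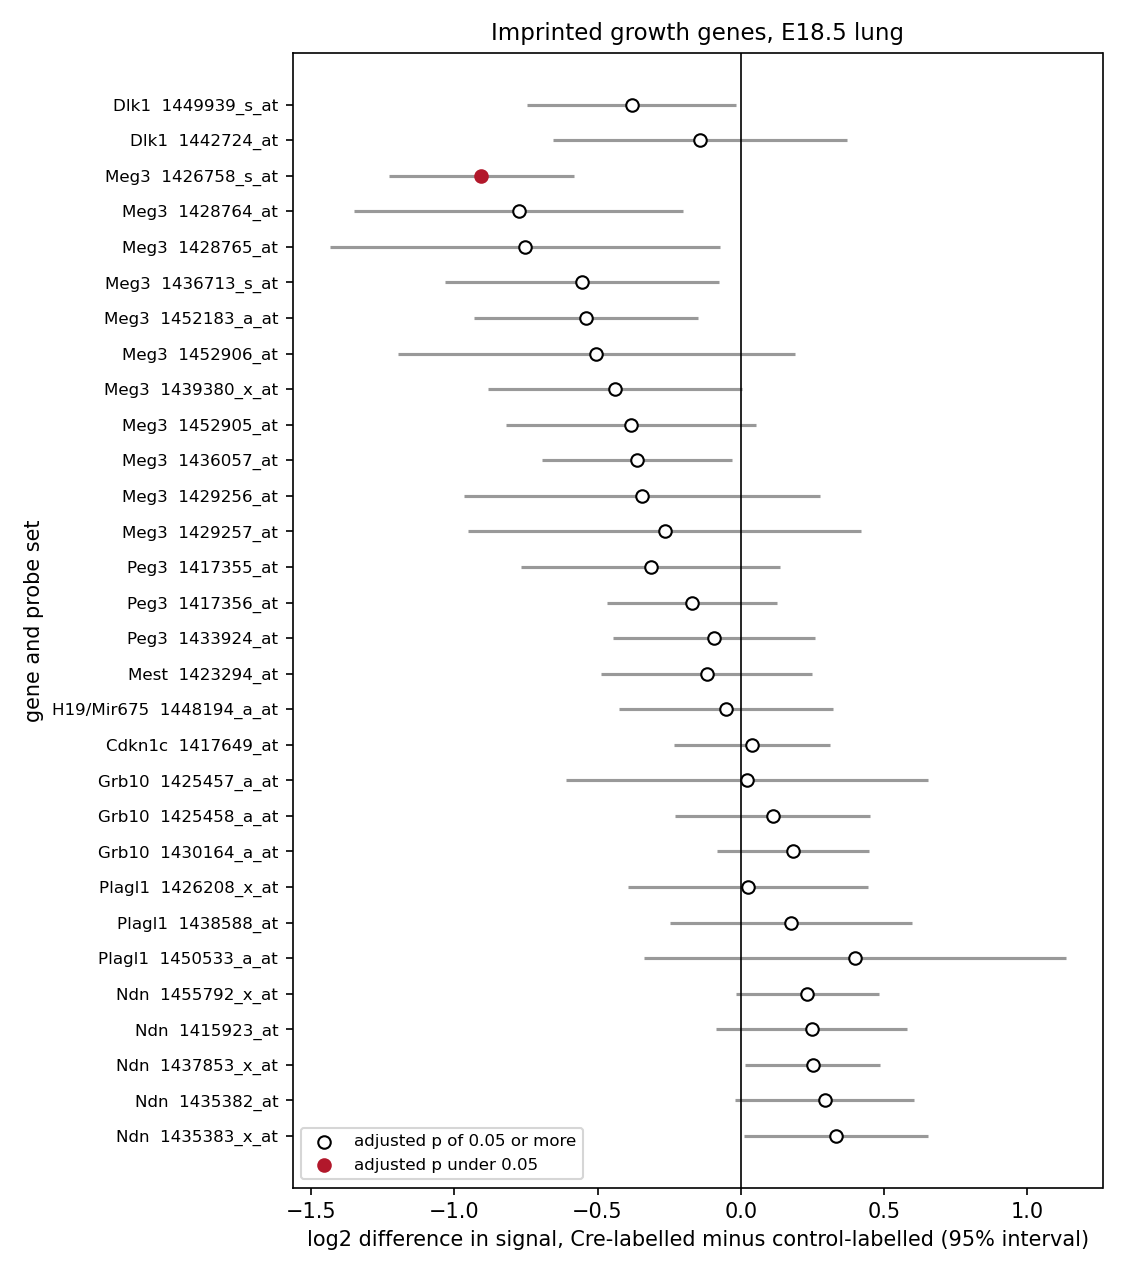
Log2 difference in signal, Cre-labelled minus control-labelled, for the 29 tested member probe sets and for the probe set given to H19 and Mir675, with the 95% interval of the limma fit (3 arrays a group). The filled point, Meg3 probe set 1426758_s_at at -0.91, is the one with an adjusted p under 0.05, and all 11 Meg3 points lie left of 0.

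Meg3 is a maternally expressed noncoding RNA of the Dlk1 cluster, and its loss in mice is lethal around birth. Its probe set 1426758_s_at read 9.90, 10.14 and 9.83 on the Cre-labelled arrays, against 10.62, 10.85 and 11.12 on the control-labelled arrays. Every Cre-labelled array lay below every control-labelled one. Signal averaged 9.96 ± 0.16 in Cre-labelled lungs and 10.86 ± 0.25 in control-labelled lungs (SD, n = 3 each). It fell by 0.91 on the log2 scale (SE 0.14, limma adjusted p = 0.014), a signal 46.6% lower, with a 95% interval of the log2 difference from -1.23 to -0.58. In these bulk samples, fewer cells that make Meg3 and less Meg3 RNA per cell cannot be told apart. The call was kept in 14 of 18 alternative fits and was lost without an intensity trend in the variance (adjusted p = 0.068), without control-labelled replicate 2 (0.053), without Cre-labelled replicate 1 (0.052) and without Cre-labelled replicate 3 (0.0503). The difference stayed negative in all of these fits, between -1.16 and -0.78.

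The other 10 Meg3 probe sets did not pass. They measure the same gene and partly the same RNA, so they are no independent evidence. Probe set 1452183_a_at read 11.35, 11.54 and 11.51 on the Cre-labelled arrays against 11.67, 11.97 and 12.37 on the control-labelled arrays, which do not overlap (difference -0.54 ± 0.17 SE, limma adjusted p = 0.13). Probe set 1428764_at read 6.0, 5.33 and 5.98 on the Cre-labelled arrays and 6.71, 6.09 and 6.84 on the control-labelled arrays (-0.78 ± 0.26 SE, adjusted p = 0.13). These also do not overlap, as do not those of 1436057_at (-0.36 ± 0.15 SE, adjusted p = 0.22).

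The Meg3 probe set with the highest mean, 1439380_x_at, read 11.62, 11.85 and 11.89 on the Cre-labelled arrays and 11.87, 12.12 and 12.67 on the control-labelled arrays. Its groups overlapped and its difference was -0.44 ± 0.20 SE (limma adjusted p = 0.26). Over the 11 probe sets the median difference was -0.50, from -0.91 to -0.26. On 9 of the 11, control-labelled replicate 3 gave the highest control value, and on none the lowest. Without that array the differences of all 11 stayed negative but lay between -0.78 and -0.03, with -0.21 for 1439380_x_at, -0.15 for 1452905_at and -0.20 for 1452906_at. The Cre-labelled arrays showed no such order, each of them being the highest of its group for 3 or 4 of the 11.

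**Figure D2:**
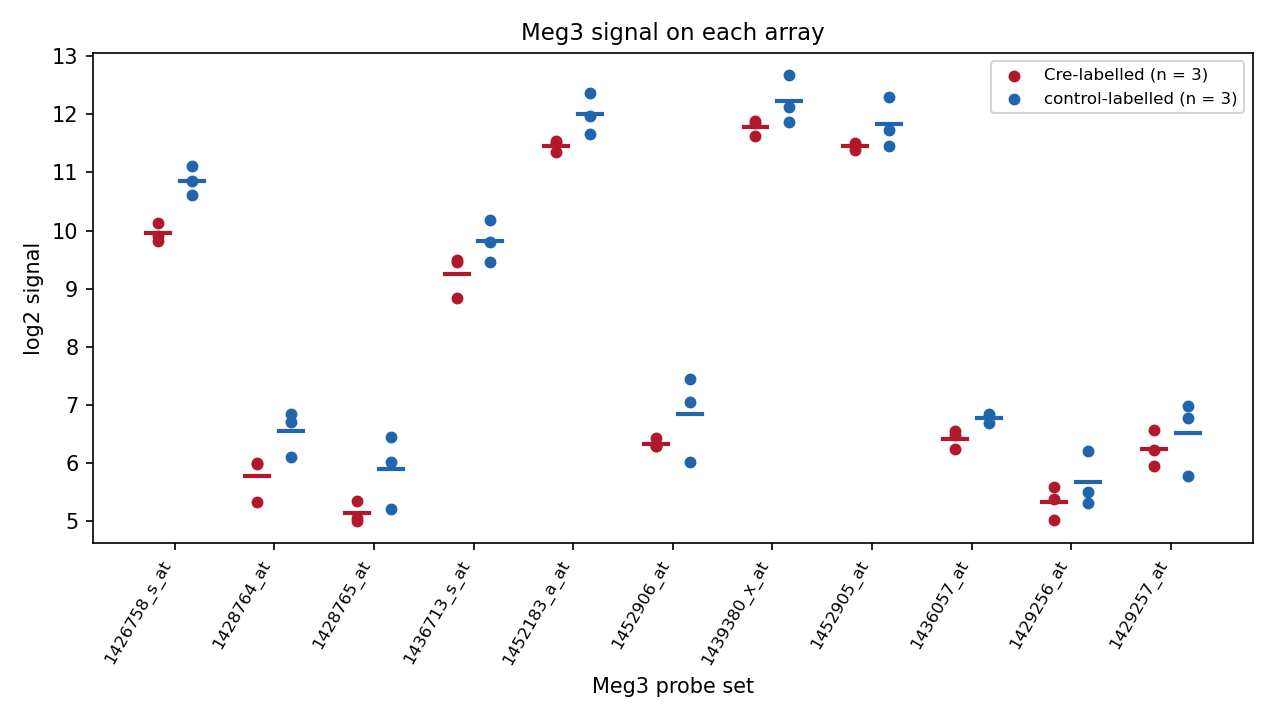
Log2 signal of the 11 Meg3 probe sets on each of the 6 arrays, Cre-labelled left of control-labelled in each pair, with bars at the group means (n = 3 each). The groups are apart for 4 probe sets, most widely for 1426758_s_at (9.83 to 10.14 against 10.62 to 11.12), and overlap for the other 7.

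Dlk1 had no called probe set. Its bright probe set 1449939_s_at read 11.29, 11.21 and 10.80 on the Cre-labelled arrays against 11.30, 11.72 and 11.42 on the control-labelled arrays, groups that touch without overlapping. The difference was -0.38 ± 0.16 SE (limma adjusted p = 0.23, 95% interval -0.74 to -0.02) and stayed negative in all 19 alternative fits (-0.65 to -0.23), none of which passed. The dim probe set 1442724_at read 4.70, 4.90 and 5.02 on the Cre-labelled arrays and 5.26, 4.96 and 4.83 on the control-labelled arrays (-0.14 ± 0.23 SE, adjusted p = 0.79).

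Further along the same cluster lie Rian and Mirg, also maternally expressed noncoding RNAs. Rian probe set 1452899_at read 9.56, 9.61 and 9.81 on the Cre-labelled arrays against 10.44, 10.10 and 10.62 on the control-labelled arrays. It fell by 0.73 on the log2 scale (SE 0.14, limma adjusted p = 0.027), and the groups did not overlap. The call was kept in 11 of 19 alternative fits, and without 1 array it was kept only without control-labelled replicate 2 (adjusted p 0.029, and 0.0503 to 0.088 in the other 5). The other 3 Rian probe sets had differences of -0.59 ± 0.15 SE, -0.41 ± 0.24 SE and -0.70 ± 0.32 SE and did not pass. Mirg probe set 1457030_at read 7.92, 7.72 and 7.80 on the Cre-labelled arrays and 8.06, 8.13 and 8.62 on the control-labelled arrays (-0.46 ± 0.15 SE, adjusted p = 0.14). Of the 19 tested probe sets of Dlk1, Meg3, Rian and Mirg, all had a lower mean in Cre-labelled lungs, 2 were called, 8 did not overlap and the median difference was -0.46. Among all tested probe sets 2.16% were called lower, 12.8% lay apart with Cre-labelled arrays below, and the median was 0.00. The 19 measure 4 genes, so they are not independent of each other. Rtl1 and Dio3, paternally expressed genes of the cluster, had no probe set given to them alone, so the 19 do not cover the whole cluster.

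The windows around the start sites of these cluster genes are shown because the means of these genes lay on the same side, and because nuclear factor I proteins bind the palindrome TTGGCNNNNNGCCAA or its separate arms TTGGC and GCCAA, which are each other's reverse complement. Each window runs from 250 bases before to 50 bases after the start, on the plus strand of chromosome 12 (RefSeq, GRCm38.p6), at chr12:109452573-109452872 for Dlk1, chr12:109540746-109541045 for the upstream start of Meg3 and chr12:109603695-109603994 for Rian. Capitals mark the arm.
Dlk1: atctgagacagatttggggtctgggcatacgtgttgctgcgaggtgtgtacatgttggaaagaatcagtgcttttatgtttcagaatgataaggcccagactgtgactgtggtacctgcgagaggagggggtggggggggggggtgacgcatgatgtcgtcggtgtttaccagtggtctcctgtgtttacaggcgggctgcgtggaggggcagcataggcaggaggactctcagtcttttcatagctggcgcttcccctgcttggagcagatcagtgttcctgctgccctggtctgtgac
Meg3: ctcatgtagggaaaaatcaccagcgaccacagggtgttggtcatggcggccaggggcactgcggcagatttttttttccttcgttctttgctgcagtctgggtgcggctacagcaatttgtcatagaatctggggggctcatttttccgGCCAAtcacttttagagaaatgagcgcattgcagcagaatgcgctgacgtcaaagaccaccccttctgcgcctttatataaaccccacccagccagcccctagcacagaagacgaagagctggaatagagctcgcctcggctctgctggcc
Rian: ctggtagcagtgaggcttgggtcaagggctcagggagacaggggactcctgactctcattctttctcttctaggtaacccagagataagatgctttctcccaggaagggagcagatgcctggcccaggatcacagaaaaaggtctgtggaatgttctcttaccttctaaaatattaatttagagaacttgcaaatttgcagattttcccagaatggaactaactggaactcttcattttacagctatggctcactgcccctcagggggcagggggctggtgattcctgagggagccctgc
This Meg3 window holds 1 arm, GCCAA, and those of Dlk1 and Rian none. The window of a second Meg3 start, at chr12:109545148-109545447, and that of Mirg, at chr12:109734731-109735030, hold none either and are not printed. An arm is in 46.7% of the 32851 RefSeq windows of this length, either strand, and the palindrome in 12 of them (0.0365%) and in none of these 5. Windows of other members, none of them called, hold arms too, 3 in that of Peg3, 1 in that of Plagl1 and 1 in each window of Grb10. Those of Mest and Ndn hold none. A match is a description of the letters and not a binding site. Windows were found for 7 of the 10 members.

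H19 restrains growth and is the source of the microRNA miR-675, whose hairpin lies within the H19 gene in RefSeq, which is why the annotation gives 1 probe set to both. Its mature arms, with the seed (bases 2 to 8) in capitals, come from RefSeq (GRCm38.p6, chr7:142577112-142577133 and chr7:142577078-142577099, minus strand) and have different seeds.
mmu-miR-675-5p: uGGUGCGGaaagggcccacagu
mmu-miR-675-3p: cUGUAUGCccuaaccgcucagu
The shared probe set read 12.30, 12.17 and 12.45 on the Cre-labelled arrays and 12.09, 12.33 and 12.65 on the control-labelled arrays. The Cre-labelled values lay within the control-labelled range. The difference was -0.05 ± 0.17 SE (limma adjusted p = 0.90), with a 95% interval from -0.42 to 0.32, so that a signal 0.75 to 1.25 times that of control-labelled lungs is covered.

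Among the growth restrainers, Cdkn1c probe set 1417649_at read 10.56, 10.26 and 10.21 on the Cre-labelled arrays and 10.28, 10.20 and 10.43 on the control-labelled arrays (0.04 ± 0.12 SE, limma adjusted p = 0.90, 95% interval -0.23 to 0.31). Grb10 encodes an adaptor protein that binds the insulin and IGF receptors and dampens their signal. Its bright probe set 1425458_a_at read 11.98, 11.81 and 12.18 on the Cre-labelled arrays and 11.68, 11.86 and 12.10 on the control-labelled arrays, which overlap (0.11 ± 0.15 SE, adjusted p = 0.75). Grb10 probe set 1430164_a_at did not overlap, with 7.31, 7.36 and 7.23 on the Cre-labelled arrays against 7.17, 7.02 and 7.17 on the control-labelled arrays, but did not pass (0.18 ± 0.12 SE, adjusted p = 0.45). The third, 1425457_a_at, had a difference of 0.02 ± 0.28 SE.

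Plagl1 and Peg3 encode zinc finger transcription factors, and Plagl1 is known to regulate other imprinted growth genes. Plagl1 probe set 1426208_x_at read 12.38, 12.27 and 12.71 on the Cre-labelled arrays and 12.13, 12.42 and 12.74 on the control-labelled arrays (0.03 ± 0.19 SE, limma adjusted p = 0.96). The Cre-labelled values lay within the control-labelled range. The other Plagl1 probe sets, 1438588_at and 1450533_a_at, had differences of 0.18 ± 0.19 SE and 0.40 ± 0.33 SE and overlapped too. For the 3 tested Peg3 probe sets the differences were -0.31 ± 0.20 SE, -0.17 ± 0.13 SE and -0.09 ± 0.16 SE (adjusted p 0.44, 0.53 and 0.80), all with overlapping groups. With 1 array left out the first ranged from -0.50 (without control-labelled replicate 2) to -0.12 (without Cre-labelled replicate 2) and the second from -0.25 (without Cre-labelled replicate 1) to -0.04 (without Cre-labelled replicate 3). The brightest, 1433924_at, read 10.95, 10.9994 and 11.39 on the Cre-labelled arrays and 11.09, 11.07 and 11.46 on the control-labelled arrays.

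Mest, a protein of the alpha/beta hydrolase fold, was measured by 1 probe set, which read 12.25, 12.17 and 12.35 on the Cre-labelled arrays and 12.11, 12.33 and 12.69 on the control-labelled arrays (-0.12 ± 0.16 SE, limma adjusted p = 0.75, 95% interval -0.49 to 0.25).

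Ndn encodes necdin, a MAGE family protein of neurons and mesenchyme that holds back the cell cycle. All 5 tested Ndn probe sets had a higher mean in Cre-labelled lungs, with differences from 0.23 to 0.33, and none passed. Probe set 1435383_x_at read 9.85, 9.96 and 10.01 on the Cre-labelled arrays against 9.74, 9.82 and 9.28 on the control-labelled arrays (0.33 ± 0.14 SE, limma adjusted p = 0.24). The groups were apart for 3 of the 5, which measure the same gene, against 13.3% of all tested probe sets apart in that direction. Control-labelled replicate 3 was the lowest control array for all 5, and without it the differences lay between 0.10 and 0.21.

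The remaining 6 member probe sets lay below the level required for a test. They were 3 of Ndn, 2 of Peg3 and the only probe set of Peg10, a gene derived from a retrotransposon and needed for the placenta. Peg10 read 3.38, 2.84 and 3.78 on the Cre-labelled arrays and 2.16, 1.74 and 2.93 on the control-labelled arrays, values that overlap and lie below that level on every array. The 3 Ndn probe sets read 1.65 to 3.54 on the Cre-labelled arrays and -1.08 to 3.06 on the control-labelled arrays, and the 2 of Peg3 -3.19 to 1.61 and -3.46 to 2.27.

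By parent of origin, Dlk1, Mest and Peg3 had lower means and Plagl1 and Ndn higher means among the paternally expressed genes, each taken by its probe set with the highest mean. Among the maternally expressed genes Meg3 had a lower mean and Cdkn1c and Grb10 higher ones. None of these 8 probe sets passed the test.

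Several bright members varied with the array within both groups. Over the 861 probe sets with a mean of at least 11, the median deviation from the probe set's own mean was -0.08, -0.06 and 0.14 on Cre-labelled replicates 1 to 3 and -0.20, 0.01 and 0.19 on control-labelled replicates 1 to 3. The probe sets with the highest mean of Mest, Plagl1 and Grb10, and the shared probe set of H19, were likewise lowest on control-labelled replicate 1 and highest of that group on replicate 3. The dimmer Plagl1 probe set 1450533_a_at had this order too (6.16, 6.17 and 7.13 on control-labelled replicates 1 to 3). The dimmer Plagl1 probe set 1438588_at and the dimmer Grb10 probe sets did not have it. Of the 11 Meg3 probe sets, control-labelled replicate 1 was the lowest control array for 6 and replicate 3 the highest for 9. Among these, the bright 1439380_x_at read 11.87, 12.12 and 12.67 on control-labelled replicates 1 to 3. The genes closest to Plagl1 1426208_x_at over the 6 arrays, out of 12264, were Rps24, Rpl13a and Snx17 (Pearson r = 0.999, 0.994 and 0.994), none of them called. For Meg3 1426758_s_at they were Iscu, Igfbp7 and Tll1 (r = 0.997, 0.997 and 0.996). With 6 arrays of 2 groups these r values describe the arrays only. Igfbp7, a secreted binding protein of blood vessels, fell by 0.87 (SE 0.13, limma adjusted p = 0.012), Iscu, an iron-sulfur cluster scaffold, fell by 0.47 (SE 0.10, adjusted p = 0.039), and Tll1, a metalloproteinase, had a difference of -0.50 (adjusted p = 0.32).

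**Figure D3:**
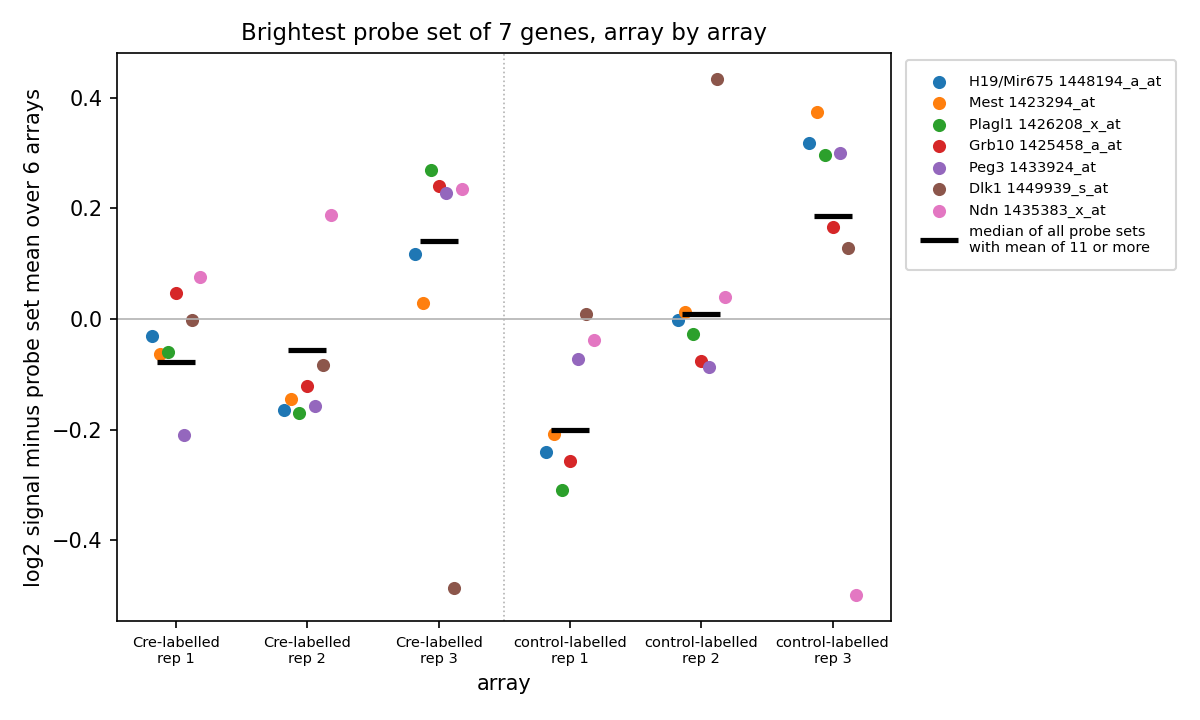
Log2 signal minus the probe set's mean over the 6 arrays, for the brightest probe set of 7 genes on each array, with black bars at the median of the 861 probe sets with a mean of 11 or more. H19, Mest, Plagl1 and Grb10 follow the black bars, from -0.20 on control-labelled replicate 1 to 0.19 on control-labelled replicate 3, while Dlk1 and Ndn do not.

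Markers of muscle had lower means in Cre-labelled lungs, with sums that overlapped between the groups. All 11 cardiac muscle genes of the list were tested and had lower means, 1 was called lower, and their summed linear signal was 2088 to 5100 in Cre-labelled and 3728 to 12549 in control-labelled lungs. Of 12 skeletal muscle genes the 6 tested had lower means, with sums of 337 to 489 in Cre-labelled and 422 to 4339 in control-labelled lungs. The upper end was control-labelled replicate 1. Acta1 read 9.95 there, against 5.82 and 5.84 on control-labelled replicates 2 and 3 and 5.53 to 5.77 on the Cre-labelled arrays. Ckm was less confined to that array, with 9.72, 8.35 and 7.14 on control-labelled replicates 1 to 3. Myod1 and Myog, which define skeletal muscle precursors, stayed below a log2 signal of 4 on every array. With the mean of the cardiac list as a covariate Meg3 1426758_s_at had a difference of -1.16 (limma adjusted p = 0.049), and with that of the skeletal list one of -1.06 (adjusted p = 0.017). Without control-labelled replicate 1, which had the highest muscle signal, it was -1.03 (adjusted p = 0.026). This fit and the one with the skeletal list rest largely on the same array, so they are not separate checks. For Rian 1452899_at the differences in these 3 fits were -0.69, -0.73 and -0.70, and none passed (limma adjusted p = 0.16, 0.067 and 0.083). With 6 arrays, and muscle means lower in Cre-labelled lungs, a part of muscle in the Meg3 and Rian values cannot be told apart from the group.

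Of the 4 endothelial genes 3 had lower means and none passed, with sums of 3335 to 3897 in Cre-labelled and 4216 to 4679 in control-labelled lungs. The 9 lung mesenchyme genes, 5 with higher and 4 with lower means and none called, summed to 18216 to 20622 in Cre-labelled and 18072 to 22695 in control-labelled lungs. The 7 lung epithelium genes summed to 14876 to 16226 in Cre-labelled and 16165 to 27368 in control-labelled lungs, with 2 called lower. The part of endothelial and epithelial cells in the Meg3 and Rian values was not tested. For liver, red cells, cartilage and adrenal or pituitary cells no listed gene passed. The red cell sums lay apart, at 441 to 829 in Cre-labelled and 940 to 1067 in control-labelled lungs. Both tested red cell genes had lower means, Alas2 with groups apart (-0.63 ± 0.21 SE, limma adjusted p = 0.14) and Slc4a1 with overlap (-0.61 ± 0.30 SE). Of the 2 tested cartilage genes Col9a1 had groups apart (1.34 ± 0.33 SE, adjusted p = 0.060), and Col2a1 overlapped (-0.11 ± 0.45 SE). Of the 4 adrenal or pituitary genes 2 were tested, and both had higher means, Dbh with a difference of 1.12 ± 0.45 SE and groups apart (limma adjusted p = 0.20) and Pnmt with 0.46 ± 0.29 SE (adjusted p = 0.42). The sums of the 4 were 111 to 127 in Cre-labelled and 84.3 to 88.1 in control-labelled lungs, and Th stayed below 4 on every array.

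Beyond the members, 51 other imprinted genes were listed, of which 45 were measured and 39 tested, each by its probe set with the highest mean. Phlda2 is left out of the count here, since its mean reached the level for a test only in control-labelled lungs. Of the other 38, 1 was called higher and 3 lower, 10.5% in all, against 4.96% among all 12826 tested genes (1.92% higher and 3.04% lower). The median difference of all 39 was -0.05, against -0.01 over all tested genes. Imprinting of several is known only from placenta or brain.

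From the list of paternally expressed genes, Slc38a4, an amino acid transporter, was called higher. It read 9.30, 9.40 and 9.43 on the Cre-labelled arrays against 8.52, 8.51 and 8.28 on the control-labelled arrays, a rise of 1.92-fold (log2 difference 0.94 ± 0.10 SE, limma adjusted p = 0.0047). The groups lay far apart, and the call was kept in all 19 alternative fits. Its other probe set had a difference of 0.63 ± 0.15 SE (adjusted p = 0.0503). Rasgrf1, a Ras exchange factor, had a difference of -0.76 ± 0.18 SE (adjusted p = 0.054) and Impact, a regulator of translation, one of 0.27 ± 0.11 SE (adjusted p = 0.19). Igf2, the growth factor gene beside H19, read 11.26, 11.57 and 11.57 on the Cre-labelled arrays and 11.29, 11.46 and 11.44 on the control-labelled arrays, which overlap (0.07 ± 0.13 SE, adjusted p = 0.81).

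From the list of maternally expressed genes, Rian, Osbpl5 and Pon2 were called lower, together with Phlda2, which lay at the floor in Cre-labelled lungs. The list gives the parent of origin known from any tissue, and imprinting in lung was not tested. Osbpl5, a lipid transfer protein, read 7.74, 7.68 and 7.77 on the Cre-labelled arrays against 8.29, 8.28 and 8.40 on the control-labelled arrays (-0.60 ± 0.10 SE, limma adjusted p = 0.016). Phlda2, which restrains placental growth, read 3.75, 3.59 and 3.47 on the Cre-labelled arrays against 4.55, 4.81 and 5.25 on the control-labelled arrays (-1.26 ± 0.28 SE, adjusted p = 0.044), and its Cre-labelled values lay below the level required for a test, so the size of its difference depends on the floor. Pon2, a paraoxonase family member, fell by 0.47 (SE 0.10, adjusted p = 0.035), and its 3 other probe sets did not pass. In the 6 fits without 1 array Osbpl5 passed in 1, and Phlda2 and Pon2 in 0 (adjusted p where it was not passed 0.051 to 0.056, 0.075 to 0.137 and 0.064 to 0.115). Phlda2 had a difference of -0.69 after 16 was added to the linear signals and of -0.30 after 64 was added (limma adjusted p = 0.046 and 0.051).

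A list of genes that set or keep imprints, called keepers here, held the maintenance DNA methyltransferase Dnmt1 and its partner Uhrf1. It also held the DNA methyltransferases Dnmt3a and Dnmt3b and zinc finger proteins that guard methylated copies. Means were higher in Cre-labelled lungs throughout the tested list. All 11 tested had a higher mean, 2 were called higher (18.2%, against 1.92% of all tested genes) and none lower. The median difference was 0.30, against -0.01 over all tested genes. For 9 of the 11 every Cre-labelled array lay above every control-labelled one, against 15.3% of all tested genes. Hells, a chromatin remodelling helicase, read 9.02, 8.95 and 8.96 on the Cre-labelled arrays against 8.34, 8.22 and 8.0 on the control-labelled arrays (0.79 ± 0.11 SE, limma adjusted p = 0.0090), and all 3 of its probe sets were called. Uhrf1 read 9.14, 8.97 and 9.16 on the Cre-labelled arrays against 8.47, 8.41 and 7.93 on the control-labelled arrays (0.82 ± 0.15 SE, adjusted p = 0.021), and its other probe set did not pass. Dnmt1 had a difference of 0.47 ± 0.11 SE (adjusted p = 0.055). Without 1 array Hells passed in 6 of 6 fits and Uhrf1 in 3 (adjusted p 0.051 to 0.070 without control-labelled replicate 2, Cre-labelled replicate 1 or Cre-labelled replicate 3). Both lost the call without an intensity trend (limma adjusted p = 0.056 for Hells and 0.085 for Uhrf1) and with the cardiac covariate (0.055 and 0.061), at differences of 0.79 and 0.82 and of 0.91 and 1.07. Hells, Uhrf1 and Dnmt1 are also known to be expressed mostly in dividing cells.

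**Figure D4:**
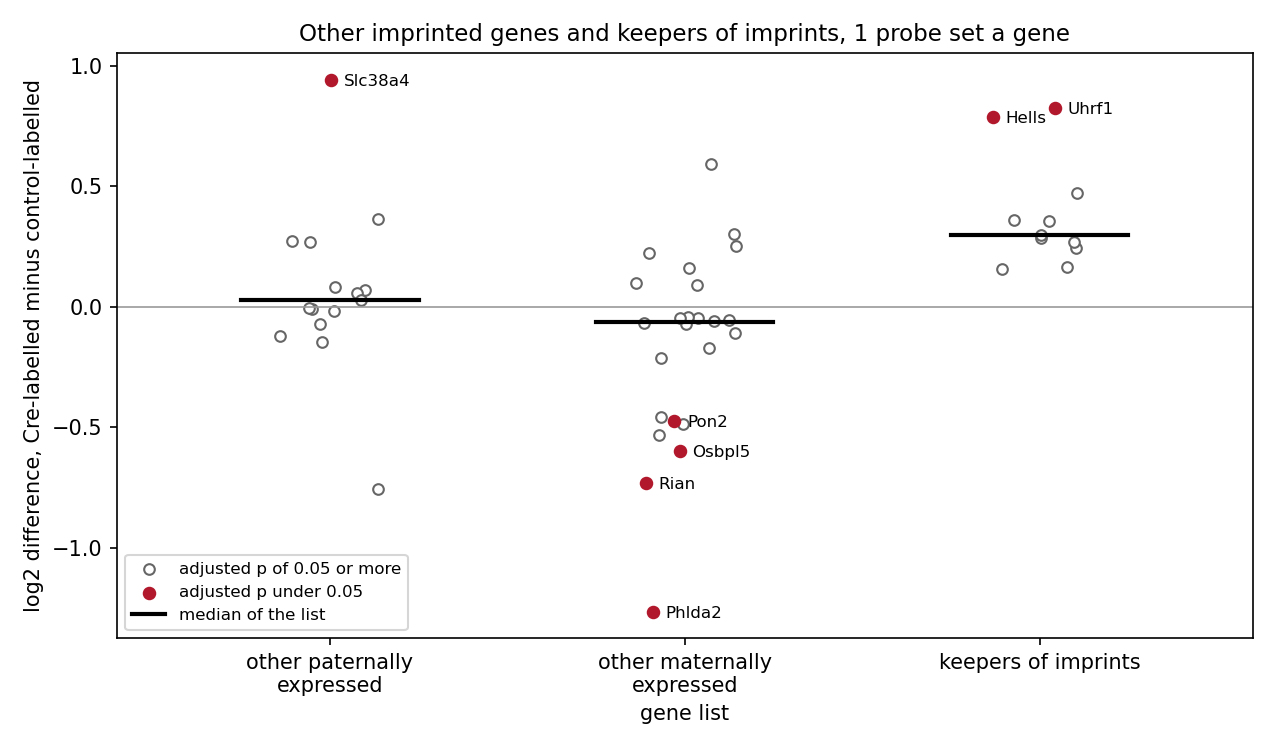
Log2 difference, Cre-labelled minus control-labelled, of 15 other paternally expressed genes, 24 other maternally expressed genes and 11 keepers of imprints, 1 probe set a gene, with bars at the medians of 0.03, -0.06 and 0.30. Filled, named points passed an adjusted p of 0.05, and all keepers lie above 0.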

How the data were processed

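Total RNA of 6 fetal lungs was labelled as biotinylated cRNA and hybridised to Affymetrix arrays, per the labels' protocols. The values deposited by the authors are log2 signals, and MAS5 and affy are the tools listed in the submitters' processing notes, with no version; other steps are not given in the sources used. They were used as deposited, without an offset. Values below 0 made up 4.93% to 6.50% of an array.

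Of 45101 probe sets, 64 are controls and were dropped. The platform annotation gives 1 gene symbol to 34945 others, several to 932 and none to 9160. For 34741 of the first the gene ID was in a RefSeq table (GRCm38.p6), used for names and gene order. The 27022 probe sets whose mean reached the 40th percentile entered the limma fit (limma 3.58.1, R 4.3.3; two-sided, variance trend on intensity, group as the only term, 4 residual and 5.32 prior degrees of freedom). The number of arrays limits precision.

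The members and lists were chosen with earlier results of these data known. Named are all member probe sets, Nfib, called genes of the imprinting lists with the 3 of smallest p in each, and the 3 genes most correlated with the member of smallest p and with that of highest mean. Igf2, Mirg and the marker genes named beside these were chosen after their values were seen. On simulated data for this comparison with 27022 probe sets, 107 of 112 probe sets changed 4-fold and 53 of 88 changed 2-fold were recovered. Alternatives were quantile and median scaling, offsets of 16 and 64, other filters, no trend, array weights, a replicate block, fetal sex or muscle covariates, each array left out, 1 probe set a gene and an adjusted p of 0.10. Fetal sex was taken from the arrays, by whether the Xist signal exceeded that of Eif2s3y, and not from a label. Other steps used Python 3.11.15 and matplotlib 3.10.9.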

Additional observations from a re-analysis of the deposited data

How the results depend on the processing

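The number of called probe sets on the whole array, 963, was 171 without an intensity trend, 587 with fetal sex, 139 with the cardiac and 602 with the skeletal muscle mean as a covariate, 2120 at an adjusted p of 0.10, and 314 to 495 with 1 array left out. The member probe sets called lower, 1 as reported, were 3 under quantile normalization, 0 without a trend, 2 with the replicate block, 2 with the cardiac and 3 with the skeletal covariate, 0 with 1 probe set a gene, and 0 to 1 without 1 array, and every one of these calls was in Meg3. No alternative called a member higher. The 5 other imprinted genes called, Phlda2 included, were 3 without a filter, 1 without a trend, 3 with fetal sex, 1 with the cardiac and 2 with the skeletal covariate, and 1 to 2 without 1 array.

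Of 37 log2 differences 26 kept their sign throughout. With the cardiac covariate the sign turned for Cdkn1c (-0.18), Dlk1 1442724_at (0.18), Grb10 1425457_a_at (-0.44), Meg3 1429256_at (0.12) and Plagl1 1426208_x_at (-0.0797), 1438588_at (-0.11) and 1450533_a_at (-0.28). With the skeletal covariate it turned for Cdkn1c (-0.0008), Dlk1 1442724_at (0.0019), Grb10 1425457_a_at (-0.0232) and 1425458_a_at (-0.0007) and Plagl1 1426208_x_at (-0.14), and under quantile normalization for the H19 and Mir675 probe set (0.0027). With 1 array left out the ranges crossed 0 for Cdkn1c (-0.0673 to 0.11), Grb10 1425457_a_at (-0.23 to 0.18), Mest (-0.25 to 0.0379), Peg3 1433924_at (-0.23 to 0.0331), Plagl1 1426208_x_at (-0.12 to 0.18) and 1438588_at (-0.0260 to 0.35) and the H19 and Mir675 probe set (-0.18 to 0.0949). The causes were not tested. The labels do not say whether replicate numbers pair the arrays, and the values do not settle it. Deviations of same-numbered arrays correlated at -0.01, 0.20 and 0.14, and 3 of 6 arrays correlated best with their own number. The median deviation of the bright probe sets rose from replicate 1 to replicate 3 in both groups. With the replicate block 1309 probe sets were called on the whole array, and the added Meg3 call was 1428764_at (-0.78, limma adjusted p = 0.037). Signals near the floor, such as those of Peg10 and Phlda2, limit what can be said of those genes.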
